A study of Mus musculus with 24 samples.

Results

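The non-collagen extracellular matrix of mouse muscle was followed here through 50 genes in 7 roles: 10 adhesive and matricellular glycoproteins, 7 proteoglycans, 9 elastic fibre and microfibril proteins, 4 lysyl oxidases, 8 basement membrane proteins, 7 enzymes and helpers of collagen maturation, and 5 matrix proteases and their inhibitors. They were chosen by gene symbol, with earlier results of these data known, so the choice was not independent of the data. Each has 1 row among the 43346 genes of the count table, and all 50 were among the 17773 genes tested. RNA came from the gastrocnemius, the large calf muscle, of C57BL6 mice. The 4 groups of 6 were male mice given LLC1 cells, male mice given vehicle, female mice given LLC1 cells and female mice given vehicle. LLC1, derived from the Lewis lung carcinoma of the mouse and labelled lung adenocarcinoma, is a cell line that forms tumours in this strain. The cells went under the skin when mice were 7 weeks old and the tumours had 3 weeks to form. Vehicle mice received PBS, a buffered saline without cells.

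Skeletal muscle fibres lie in a layered matrix. Laminins, nidogens and perlecan form the basement membrane on each fibre, and collagens, proteoglycans, elastic microfibrils and adhesive glycoproteins fill the space between fibres and carry force to the tendon. Fibroblastic cells, among them the fibro-adipogenic progenitors, make most of the matrix between fibres. Prolyl and lysyl hydroxylases, a collagen chaperone and propeptide-trimming enzymes build collagen, lysyl oxidases cross-link it, and metalloproteinases with their inhibitors, the TIMPs, govern its turnover.

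Levels are given in CPM, counts per mega-count (M) of library size after TMM scaling, and values of a group of 6 as the lowest, the median and the highest mouse. Total counts were 26.2 to 47.4 M in a library, and no gene of the 50 had fewer than 12 counts in a library. The mouse titles number each animal, with a first digit of 1 or 2 whose meaning is not given and which is called the title set here. The descriptions give each group a different sequencing lane, and effects of lane and of group cannot be told apart. The male vehicle mouse 1-3 stood apart: it was the highest of its group for 48 of the 50 genes. Among female LLC1 mice, 2-1 was the highest for 33 genes, and 2-4 and 2-5 were the lowest for 29 and 20.

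In male mice most of the matrix genes were lower with LLC1. At an adjusted p under 0.05, 31 of the 50 fell and 1, the cross-linking enzyme Lox, rose, while 16.8% and 19.5% of all tested genes were called lower and higher. The median log2 fold change was -0.57 over the 50 genes and 0.01 over all genes tested. In female mice 8 fell and 1, again Lox, rose, against 4.95% and 4.97% of all genes, with a median of -0.28 against -0.01. The 8 lower in females (Sparcl1, Lum, Fbn1, Mfap2, Loxl1, Loxl2, Nid2 and Mmp2) were lower in males too, where 3.87% of all genes were called lower in both sexes. Lox was the gene called higher in both sexes (3.75% of all genes). The female count of 9 became 5 without female LLC1 1-4, 4 without female LLC1 2-3, 4 without female vehicle 1-1 and 5 without female vehicle 1-3, and it was 9, 7 and 8 without female LLC1 2-1, 2-4 and 2-5. The male count was 25 without male vehicle 1-3. Averaged over the sexes, 31 fell and 2, Lox and the thrombospondin Thbs1, rose (background 20.2% lower and 21.2% higher). Of these 33 averaged calls, 30 held without any 1 library, while Fbln2, Lamc1 and Plod1 held in 8, 11 and 9 of the 24 such fits. Bulk muscle RNA cannot tell fewer matrix-making cells from less RNA per cell.

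Summed over the 50 genes, the level was 2997 to 3454 CPM in male LLC1 mice, against 3927 to 6331 CPM in male vehicle mice. In female LLC1 mice it was 2411 to 4755 CPM, against 2947 to 5451 CPM in female vehicle mice. The male sums did not overlap and the female sums did. For 21 genes every male LLC1 mouse lay below every male vehicle mouse, against 5.35% of all genes. In females that held for 2, Lum and Loxl2, against 2.5% of all genes. No gene of the 50 had every LLC1 mouse above every vehicle mouse in either sex (4.96% of all genes in males and 4.05% in females). Within title set 1, the median log2 fold change of the 50 genes was -0.72 in males (2 LLC1 and 4 vehicle mice) and -0.38 in females (2 LLC1 and 3 vehicle mice). Within title set 2 it was -0.34 in males (4 LLC1 and 2 vehicle mice) and 0.02 in females (4 LLC1 and 3 vehicle mice), so the lower median of the female list did not hold within set 2. Of the 32 male and 9 female calls, 23 and 0 were called within set 1, and 8 and 1 within set 2. The sets differed in level among vehicle mice, and LLC1 and vehicle mice were spread unevenly over them. In male vehicle mice the summed level was 4078 to 6331 CPM in set 1 and 3927 to 4058 CPM in set 2, and in female vehicle mice 4501 to 5451 CPM in set 1 and 2947 to 3519 CPM in set 2. With the title set as a block, 6 male calls ended (Fn1, Thbs3, Aspn, Efemp1, Fbln2 and P4ha2, adjusted p = 0.0538 to 0.0871). With that block Thbs1 rose in males (1.38, adjusted p = 0.0314) and Fbln1 in females (0.92, adjusted p = 0.049). The part of the title set in the other values was not tested.

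**Figure D1:**
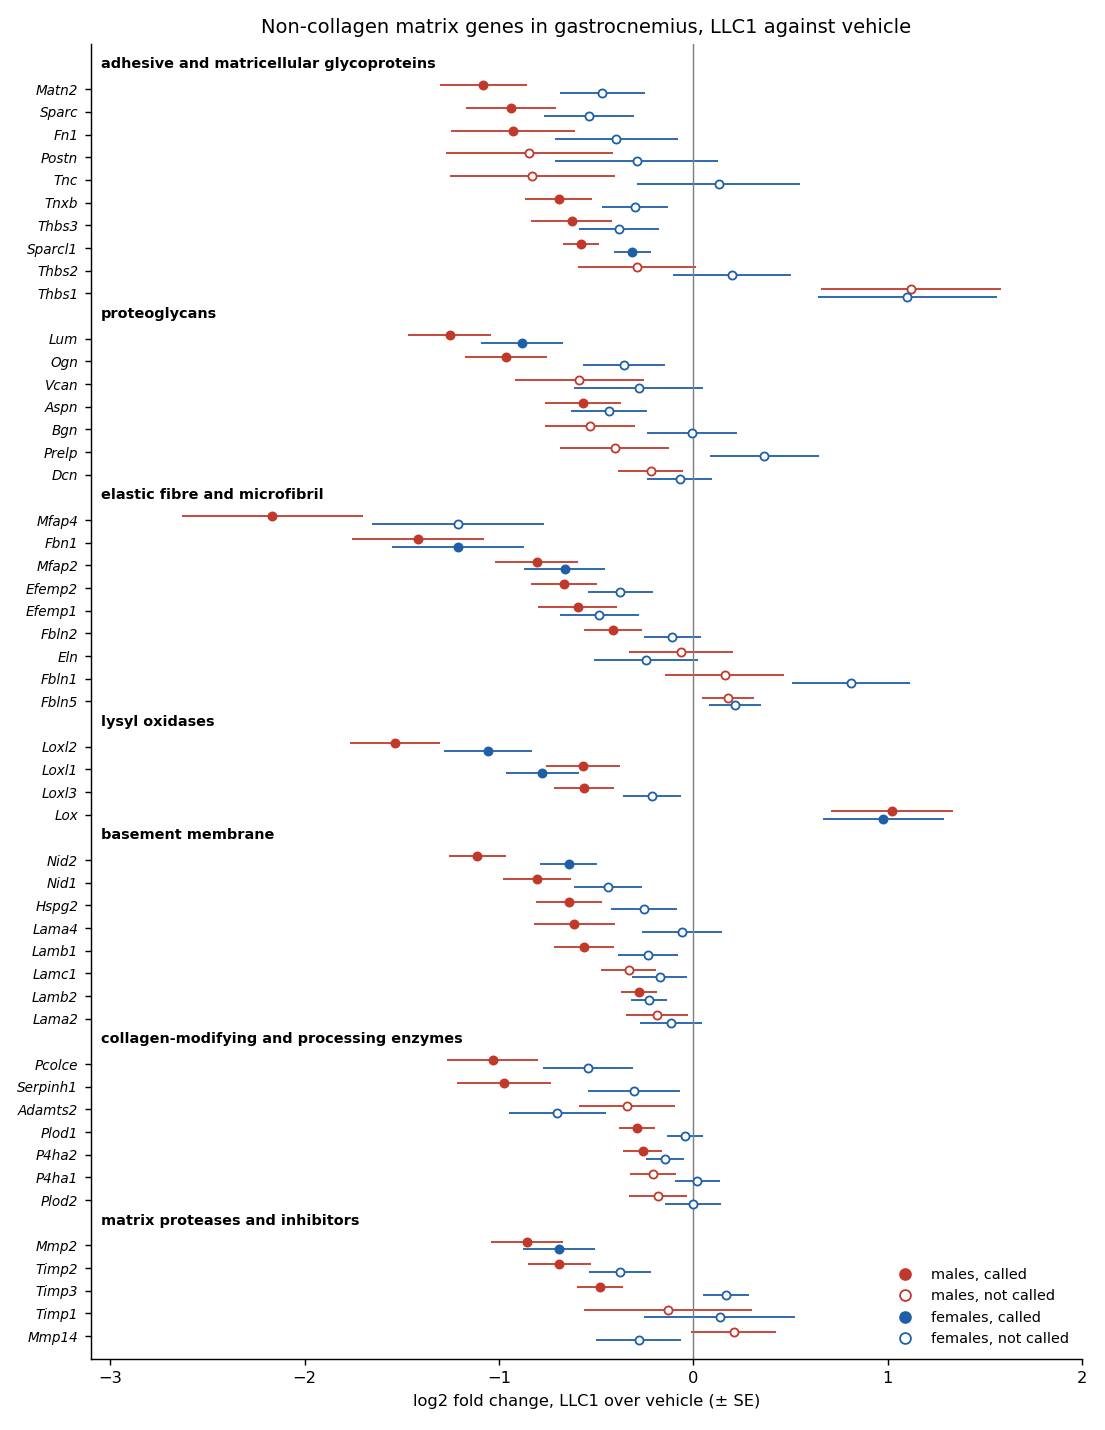
Log2 fold change of LLC1 over vehicle (horizontal axis) with its standard error for each of the 50 genes, grouped by role, in males (red) and females (blue); filled points were called at an adjusted p under 0.05. Most points lie left of 0, the male point lies left of the female point for 44 of 50 genes, and Lox and Thbs1 lie near 1 in both sexes.

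The adhesive and matricellular glycoproteins tie cells to fibres and tune growth factor signals. Of these, 6 of 10 fell in males and 1 of 10 in females, against 16.8% and 4.95% of all genes tested. Sparcl1, a collagen-binding relative of Sparc, stood at 86.4, 113 and 123 CPM in male LLC1 mice, against 148, 156 and 202 CPM in male vehicle mice. It stood at 126, 137 and 171 CPM in female LLC1 mice, against 160.5, 172 and 193 CPM in female vehicle mice. The male groups did not overlap, and in females 5 of 6 LLC1 mice lay below every vehicle mouse. Sparcl1 fell in males (log2 fold change -0.58 ± 0.09, adjusted p = 0.000105) and in females (-0.31 ± 0.09, adjusted p = 0.0335). The female call ended without female LLC1 1-4, 1-5, 2-3, 2-4 or 2-5 or female vehicle 1-1, 1-3, 1-4, 2-1 or 2-3 (adjusted p = 0.0529 to 0.109). Sparc itself, which binds collagen and calcium, fell in males (-0.94 ± 0.23, adjusted p = 0.00355) and had a value of -0.54 ± 0.23, adjusted p = 0.143 in females. Matn2, a matrilin that links matrix networks, fell in males (-1.08 ± 0.23, adjusted p = 0.000995), and Tnxb, the tenascin whose loss in people gives lax skin and joints, fell too (-0.69 ± 0.17, adjusted p = 0.00341). Fibronectin, Fn1, the main adhesive protein of the interstitium, fell in males (-0.93 ± 0.32, adjusted p = 0.027), as did Thbs3 (-0.63 ± 0.21, adjusted p = 0.022). The male call of Fn1 ended without male LLC1 1-5 or 2-1 or male vehicle 1-3 (adjusted p = 0.0528 to 0.0692), and that of Thbs3 without male LLC1 1-5 or 2-1 or male vehicle 1-3 (adjusted p = 0.0516 to 0.0632). Reads over exons that Thbs3 shares with Mtx1 on the other strand, if Mtx1 reads lie evenly, amount to 13.6% of the Thbs3 counts.

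Thbs1, a thrombospondin that activates latent TGF-beta, was the adhesive gene with values above 0 in both sexes that passed on average. Its levels were 34.3, 38.4 and 84.1 CPM in male LLC1 mice, against 12, 15.9 and 44.4 CPM in male vehicle mice. Levels in females were 12.4, 39.7 and 97.3 CPM with LLC1, against 8.11, 15.4 and 40.8 CPM with vehicle. The groups overlapped in both sexes. Thbs1 did not pass in males (log2 fold change 1.12 ± 0.46, adjusted p = 0.062) or in females (1.10 ± 0.46, adjusted p = 0.132), and rose averaged over the sexes (1.11 ± 0.33, adjusted p = 0.0097). Without male vehicle 1-3 the male value passed (1.45, adjusted p = 0.0236), and it also passed without female LLC1 2-1 (1.12, adjusted p = 0.0467) or 2-5 (1.12, adjusted p = 0.0451), whose spread enters the shared estimate. The male value passed too with DESeq2 (adjusted p = 0.044), limma-voom without and with sample weights (0.0343 and 0.0123), only the 2 groups compared (0.0282) and non-robust dispersions (0.047). The female value passed with limma-voom with sample weights (1.27, adjusted p = 0.0165). Its relative Thbs2 had a log2 fold change of -0.29 ± 0.30, adjusted p = 0.475 in males and 0.20 ± 0.30, adjusted p = 0.731 in females. Postn (periostin, a matricellular protein of healing tissue) and Tnc (tenascin C, abundant at the muscle-tendon junction) passed in neither sex. In males they had log2 fold changes of -0.84 ± 0.43 and -0.83 ± 0.43 (adjusted p = 0.129 and 0.132).

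Small leucine-rich proteoglycans coat collagen fibrils and set their thickness. Lumican, Lum, had 8.87, 15.2 and 22.8 CPM in male LLC1 mice, against 32.2, 35.6 and 54.9 CPM in male vehicle mice. Female LLC1 mice had 16.3, 25.4 and 33.5 CPM, against 36.2, 42.3 and 60.6 CPM in female vehicle mice. Every LLC1 mouse lay below every vehicle mouse of its sex. Lum fell in males (log2 fold change -1.25 ± 0.21, adjusted p = 0.000196) and in females (-0.88 ± 0.21, adjusted p = 0.00983), and both calls held without any 1 library. In males 3 of 7 proteoglycans fell: Lum, osteoglycin (Ogn, -0.96 ± 0.21, adjusted p = 0.00143) and asporin (Aspn, -0.57 ± 0.20, adjusted p = 0.0271). Lum was the 1 of 7 that fell in females, where 4.95% of all genes tested were called lower, against 16.8% in males. The male call of Aspn ended without male LLC1 1-5 or 2-4 or male vehicle 1-3 (adjusted p = 0.0619 to 0.0977), with a log2 fold change of -0.38 without that last mouse. Decorin, Dcn, had the highest level per kilobase of exon of all 50 genes in every group, at 332 CPM per kb in male LLC1 mice, against 387 CPM per kb in male vehicle mice. Female LLC1 mice had 284 CPM per kb, against 298 CPM per kb in female vehicle mice. Its log2 fold change was -0.22 ± 0.17, adjusted p = 0.32 in males and -0.07 ± 0.17, adjusted p = 0.837 in females. Biglycan (Bgn), Prelp, which binds both collagen and perlecan, and the large hyaluronan-binding Vcan did not pass in either sex. Prelp had -0.41 ± 0.28, adjusted p = 0.269 in males and 0.36 ± 0.28, adjusted p = 0.444 in females.

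Elastic fibres are built from elastin on a scaffold of fibrillin microfibrils with fibulins. Of 9 genes, 6 fell in males and 2 in females, against 16.8% and 4.95% of all genes tested. Fibrillin 1, Fbn1, the backbone of microfibrils, had 40.4, 59.8 and 126 CPM in male LLC1 mice, against 128, 181 and 261 CPM in male vehicle mice, with no overlap. Among females, Fbn1 had 29.3, 65.9 and 105 CPM with LLC1, against 84, 148 and 243 CPM with vehicle, and those groups overlapped. It fell in males (log2 fold change -1.42 ± 0.34, adjusted p = 0.00304) and females (-1.21 ± 0.34, adjusted p = 0.026). The female call ended without female LLC1 1-4, 2-3 or 2-4 or female vehicle 1-1 or 1-3 (adjusted p = 0.0534 to 0.067). Mfap2, a small microfibril protein, fell in males (-0.81 ± 0.21, adjusted p = 0.0054) and females (-0.66 ± 0.21, adjusted p = 0.0431). That female call ended without male LLC1 2-1, male vehicle 1-1, 1-2 or 1-4, female LLC1 1-4, 2-1, 2-3, 2-4 or 2-5 or female vehicle 1-1, 1-3 or 2-1 (adjusted p = 0.05 to 0.128). The lowest log2 fold change of the 50 genes in males was that of Mfap4, a microfibril protein needed for elastic fibre assembly (-2.17 ± 0.47, adjusted p = 0.00136). It did not pass in females (-1.21 ± 0.44, adjusted p = 0.0839), and did so without female LLC1 2-1 (-1.63, adjusted p = 0.025). The female value of Mfap4 also passed with limma-voom without sample weights (-1.36, adjusted p = 0.0388) and with them (-1.24, adjusted p = 0.0172).

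The fibulins did not all move one way. Efemp2 (fibulin 4), required for elastic fibres and for lysyl oxidase to reach them, fell in males (-0.67 ± 0.17, adjusted p = 0.00378), as did Efemp1 (fibulin 3, -0.60 ± 0.20, adjusted p = 0.0262) and Fbln2 (fibulin 2, -0.42 ± 0.15, adjusted p = 0.0315). The male call of Efemp1 ended without male LLC1 1-5, 2-1 or 2-4 or male vehicle 1-1 (adjusted p = 0.0508 to 0.0725). That of Fbln2 ended without male LLC1 1-5, 2-1 or 2-4 or male vehicle 1-1, 1-3 or 1-4 (adjusted p = 0.0523 to 0.083). Fbln5, which tethers elastin to cells, had 19.9, 21 and 22.3 CPM in male LLC1 mice, against 16.7, 17.1 and 25.5 CPM in male vehicle mice. The female levels of Fbln5 were 17.3, 25.5 and 30.3 CPM with LLC1, against 17.1, 19.6 and 26.8 CPM with vehicle. The groups overlapped in both sexes, and Fbln5 passed in neither, with 0.18 ± 0.13, adjusted p = 0.315 in males and 0.21 ± 0.13, adjusted p = 0.332 in females. Fbln1, a fibulin of basement membranes and vessel walls, had 13, 14.3 and 18.5 CPM in male LLC1 mice, against 8.9, 12.2 and 21.8 CPM in male vehicle mice. In females Fbln1 had 10.2, 26.9 and 41.8 CPM with LLC1, against 8.26, 15.1 and 19.7 CPM with vehicle. In females 4 of 6 LLC1 mice lay above every vehicle mouse and the other two, 2-4 and 2-5, did not. Its value was 0.16 ± 0.31, adjusted p = 0.716 in males and 0.81 ± 0.30, adjusted p = 0.0918 in females, and the female value passed without female LLC1 2-4 (0.97, adjusted p = 0.0397) or 2-5 (0.97, adjusted p = 0.0293). With DESeq2 (0.82, adjusted p = 0.0412) and limma-voom with sample weights (0.94, adjusted p = 0.00956) the female value of Fbln1 passed too. Elastin, Eln, had -0.06 ± 0.27, adjusted p = 0.877 in males and -0.24 ± 0.27, adjusted p = 0.616 in females. Efemp2 shares exon bases with Mus81 on the other strand, whose reads there, if even, would make 15.2% of its counts. Mus81 fell too (-0.25 ± 0.09 in males, adjusted p = 0.028).

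RefSeq promoter windows (GRCm38.p6, 250 bases before to 50 after a start) were held for 33 of the 50 genes, 40 windows in all, and for 32851 windows of the genome. The GC box GGGCGG, on either strand, stood in 70% of the 40, against 35.7% of all windows and 46.2% of the 21263 windows of protein-coding genes. Median GC content was 59.8% in the 40, 52.7% in all and 56.3% in protein-coding windows. Other motifs on either strand were the TATA box TATAAA (20%, against 13.6% of all windows), CCAAT (32.5%, against 37.4% of all windows), the AP-1 motif TGANTCA (5%, against 7.81% of all windows), the SMAD-binding CAGACA (27.5%, against 21% of all windows), the E-box CACGTG (5%, against 7.15% of all windows), the STAT motif TTCNNNGAA (2.5%, against 8.3% of all windows) and the TEAD motif GGAATG (10%, against 14.7% of all windows). The 250 bases before the start are shown for 3 of the 31 genes called lower averaged over the sexes, those with the smallest adjusted p whose window held at most 30 exon bases of the gene in GENCODE M21. They are Mfap2 (chr4:141010174-141010423, plus strand), Efemp2 (chr19:5473696-5473945, plus strand) and Ogn (chr13:49607765-49608014, plus strand), read 5′ to 3′ with matches to those motifs in capitals.
Mfap2: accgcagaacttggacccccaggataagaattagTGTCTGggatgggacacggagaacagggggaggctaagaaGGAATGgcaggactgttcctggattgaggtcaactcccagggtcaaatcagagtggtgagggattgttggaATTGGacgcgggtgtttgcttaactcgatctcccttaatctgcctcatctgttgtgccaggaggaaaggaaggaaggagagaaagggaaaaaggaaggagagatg
Efemp2: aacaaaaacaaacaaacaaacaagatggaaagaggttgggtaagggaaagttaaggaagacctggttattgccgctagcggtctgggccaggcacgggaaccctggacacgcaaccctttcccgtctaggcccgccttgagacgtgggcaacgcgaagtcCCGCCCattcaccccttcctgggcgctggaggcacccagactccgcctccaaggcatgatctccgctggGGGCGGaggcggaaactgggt
Ogn: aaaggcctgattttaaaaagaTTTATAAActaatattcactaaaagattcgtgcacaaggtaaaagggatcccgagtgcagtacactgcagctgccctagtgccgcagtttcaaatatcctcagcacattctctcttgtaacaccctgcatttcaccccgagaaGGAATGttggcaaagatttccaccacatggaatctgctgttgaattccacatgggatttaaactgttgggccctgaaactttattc
Mfap2 held a CAGACA match, a TEAD match and a CCAAT box, the first and the last on the minus strand. Efemp2 held 2 GC boxes. Ogn held 2 overlapping TATA box matches on opposite strands and a TEAD match. These letters are a description of the windows and no binding was measured.

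Lysyl oxidases cross-link collagen and elastin. All 4 were called in males, 3 lower and 1 higher, against 16.8% and 19.5% of all genes tested. Lox had 18.6, 30.6 and 51 CPM in male LLC1 mice, against 10.2, 14.4 and 25.3 CPM in male vehicle mice. The female levels of Lox were 18.1, 27.4 and 56 CPM with LLC1, against 9.32, 15.9 and 24.3 CPM with vehicle. The groups overlapped, with 3 of 6 male and 4 of 6 female LLC1 mice above every vehicle mouse. Lox rose in males (log2 fold change 1.02 ± 0.31, adjusted p = 0.0146) and in females (0.98 ± 0.31, adjusted p = 0.049). The female call lay close to the threshold and ended without male LLC1 2-4 or 2-5, male vehicle 1-1, 1-2, 1-4, 2-4 or 2-5, female LLC1 1-4, 1-5, 2-1 or 2-3 or female vehicle 1-1, 1-4, 2-1, 2-2 or 2-3 (adjusted p = 0.05 to 0.131). Its value was 0.73 without female LLC1 2-1, the highest mouse.

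Loxl2, which acts on basement membrane collagen, moved the other way. It had 4.43, 6.54 and 10.1 CPM in male LLC1 mice, against 15, 18.4 and 28.4 CPM in male vehicle mice. The female levels of Loxl2 were 4.7, 7.19 and 12.8 CPM with LLC1, against 13.5, 15.9 and 23.4 CPM with vehicle. Neither sex had any overlap. Loxl2 fell in males (log2 fold change -1.54 ± 0.23, adjusted p = 6.03e-05) and in females (-1.06 ± 0.23, adjusted p = 0.00445). Loxl1, which works on elastin, had 10.1, 10.8 and 14.7 CPM in male LLC1 mice, against 12.9, 16.1 and 22.3 CPM in male vehicle mice. In females Loxl1 had 8.65, 9.93 and 16.2 CPM with LLC1, against 13.7, 17.9 and 27.2 CPM with vehicle. Loxl1 overlapped in both sexes and fell in both, with -0.57 ± 0.19, adjusted p = 0.0221 in males and -0.78 ± 0.19, adjusted p = 0.0107 in females. The male call of Loxl1 ended without male LLC1 1-5 or 2-4 or male vehicle 1-3 or 1-4 (adjusted p = 0.0504 to 0.058). Loxl3 fell in males (-0.56 ± 0.15, adjusted p = 0.00623), although it shares exon bases with Htra2 on the other strand, whose reads there, if even, would make 39% of its counts. Htra2 had 0.11 ± 0.09 in males (adjusted p = 0.356).

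Per kilobase of exon, the order of the 4 enzymes by mean level differed between LLC1 and vehicle mice. In male LLC1 mice Lox stood first at 6.6 CPM per kb, ahead of Loxl1 at 3.43, Loxl3 at 1.52 and Loxl2 at 1.26. In male vehicle mice Loxl1 stood first at 5.07 CPM per kb, ahead of Loxl2 at 3.64, Lox at 3.25 and Loxl3 at 2.24. Female LLC1 mice had Lox first at 6.52 CPM per kb and Loxl2 last at 1.53, against Loxl1 first at 5.8 and Loxl3 last at 2.52 in female vehicle mice. Differences between the enzymes within a group were not tested.

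**Figure D2:**
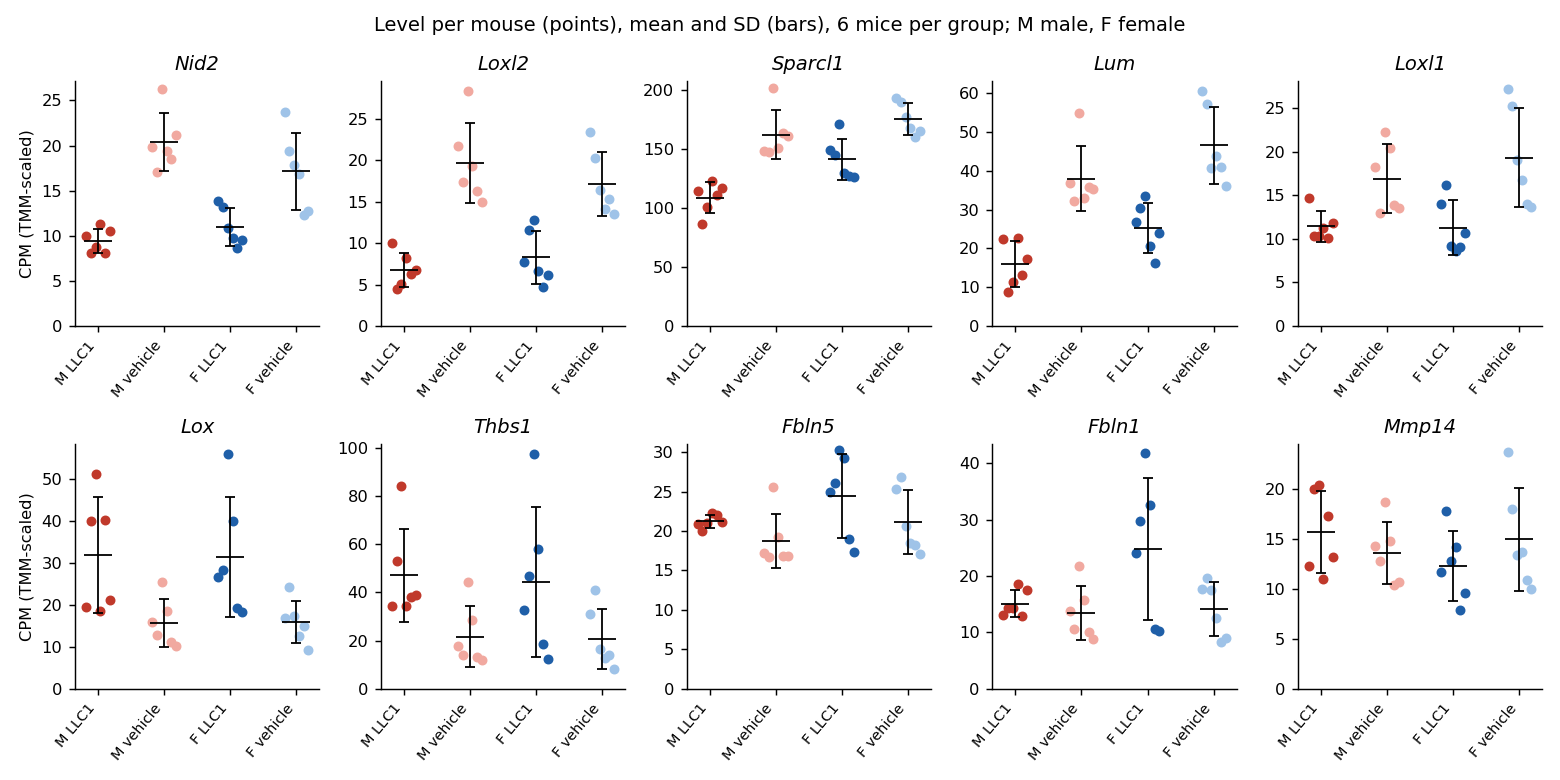
CPM (vertical axis) of 10 genes in each mouse (points) with the mean and SD of 6 mice (bars), by group: male LLC1, male vehicle, female LLC1 and female vehicle. Lum and Loxl2 show no overlap in either sex, Nid2 and Sparcl1 none in males, and the LLC1 groups of Lox and Thbs1 are spread widely and reach above vehicle.

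The basement membrane genes all had negative log2 fold changes in both sexes. Among them 6 of 8 fell in males and 1 of 8 in females, against 16.8% and 4.95% of all genes tested. Nidogen 2, Nid2, which bridges laminin and collagen IV, had 8.06, 9.32 and 11.3 CPM in male LLC1 mice, against 17.1, 19.6 and 26.2 CPM in male vehicle mice. The female levels of Nid2 were 8.7, 10.3 and 13.9 CPM with LLC1, against 12.3, 17.3 and 23.7 CPM with vehicle. The male groups were apart, and 4 of 6 female LLC1 mice lay below every female vehicle mouse. Nid2 fell in males (log2 fold change -1.11 ± 0.15, adjusted p = 1.54e-05) and females (-0.64 ± 0.15, adjusted p = 0.00736), and both calls held without any 1 library. It shares 437 exon bases with Rtraf, on the other strand, whose reads there, if even, would exceed the Nid2 counts (121%). Rtraf had a log2 fold change of 0.07 ± 0.07 in males and -0.07 ± 0.07 in females and was not called, so the Nid2 level is uncertain. Its relative Nid1, with no such overlap, fell in males (-0.80 ± 0.18, adjusted p = 0.00137) and had -0.44 ± 0.17, adjusted p = 0.109 in females.

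Perlecan, Hspg2, the heparan sulfate proteoglycan of the basement membrane, fell in males (-0.64 ± 0.17, adjusted p = 0.00559). The laminin chains differed in value. Lama4 and Lamb1 fell in males by 0.61 and 0.56 on the log2 scale (SE 0.21 and 0.16, adjusted p = 0.0243 and 0.0071), and Lamb2, a chain of the synapse, fell too (-0.28 ± 0.09, adjusted p = 0.0203). Lama2, whose loss causes merosin-deficient muscular dystrophy, had 101 ± 16 CPM in male LLC1 mice and 115 ± 9.5 CPM in male vehicle mice (SD, n = 6 each). It did not pass in males (-0.19 ± 0.16, adjusted p = 0.378) or females (-0.12 ± 0.16, adjusted p = 0.694). Lamc1, the gamma chain shared by most laminins, had no overlap in males and did not pass there (-0.33 ± 0.14, adjusted p = 0.0638). The male call of Lama4 ended without male LLC1 1-5, 2-1 or 2-4 or male vehicle 1-3 (adjusted p = 0.0527 to 0.0608), and that of Lamb2 without male LLC1 1-5 (adjusted p = 0.0574). In females none of the laminin chains or perlecan passed, with log2 fold changes between -0.26 and -0.06.

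Among the genes of collagen maturation, 4 of 7 fell in males, against 16.8% of all genes tested. In females 0 of 7 fell (edgeR), against 4.95%, and 2 of 7 had an unadjusted p under 0.05, against 25.5% of all genes. Pcolce, which speeds the trimming of procollagen, had 23.8 ± 8.9 CPM in male LLC1 mice and 48.5 ± 13.1 CPM in male vehicle mice (SD, n = 6 each) and fell (-1.03 ± 0.23, adjusted p = 0.00189). The chaperone Serpinh1 (Hsp47), which escorts procollagen through the cell, fell in males (-0.97 ± 0.24, adjusted p = 0.00353). Plod1, a lysyl hydroxylase, fell in males (-0.29 ± 0.09, adjusted p = 0.0174), as did P4ha2, a catalytic subunit of prolyl hydroxylase (-0.26 ± 0.10, adjusted p = 0.0402). The call of Plod1 ended without male vehicle 1-3 (adjusted p = 0.053), and that of P4ha2 without male LLC1 1-5, 2-1 or 2-4 or male vehicle 1-1, 1-3 or 1-4 (adjusted p = 0.0818 to 0.1). P4ha1, the other main catalytic subunit, had -0.21 ± 0.12, adjusted p = 0.171, and Plod2, which hydroxylates collagen telopeptides, had -0.18 ± 0.15, adjusted p = 0.361. The procollagen N-propeptidase Adamts2 did not pass in males (-0.34 ± 0.25, adjusted p = 0.295) or females (-0.70 ± 0.25, adjusted p = 0.0751), and fell averaged over the sexes (-0.52 ± 0.18, adjusted p = 0.0212). Without male LLC1 1-5, its highest LLC1 mouse, the male value passed (-0.63, adjusted p = 0.0322) and so did the female value (-0.70, adjusted p = 0.0278), since the spread is shared between groups. The female value of Adamts2 also passed with DESeq2 (adjusted p = 0.0417), limma-voom with sample weights (0.0469) and only the 2 groups compared (0.0403). Its male value passed with limma-voom with sample weights (adjusted p = 0.037).

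Of 5 matrix proteases and inhibitors, 3 fell in males and 1 in females, against 16.8% and 4.95% of all genes tested. Gelatinase A, Mmp2, fell in males (-0.86 ± 0.19, adjusted p = 0.00127) and females (-0.69 ± 0.18, adjusted p = 0.019). Every male LLC1 mouse lay below every male vehicle mouse, at 40.3, 44.7 and 46.1 CPM in male LLC1 mice, against 63, 74.3 and 118 CPM in male vehicle mice. The female call of Mmp2 ended without female LLC1 2-3 or female vehicle 1-1 or 1-3 (adjusted p = 0.0515 to 0.0573). Its membrane-bound activator Mmp14 had 11, 15.2 and 20.3 CPM in male LLC1 mice, against 10.4, 13.5 and 18.7 CPM in male vehicle mice. In females Mmp14 had 7.83, 12.2 and 17.8 CPM with LLC1, against 9.93, 13.5 and 23.7 CPM with vehicle. Mmp14 overlapped in both sexes and passed in neither, at 0.21 ± 0.22, adjusted p = 0.48 in males and -0.28 ± 0.22, adjusted p = 0.445 in females. Timp2, which both inhibits Mmp2 and helps Mmp14 activate it, fell in males (-0.69 ± 0.16, adjusted p = 0.00217) and had -0.38 ± 0.16, adjusted p = 0.134 in females. Timp1, the inducible inhibitor, stood at 0.398, 0.949 and 1.72 CPM in male LLC1 mice, against 0.406, 1.09 and 1.56 CPM in male vehicle mice, and had -0.13 ± 0.43, adjusted p = 0.841 in males and 0.13 ± 0.39, adjusted p = 0.872 in females.

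Timp3, the inhibitor held in the matrix, had the lowest unadjusted p of the 50 genes for a difference between the sexes. Its levels were 108, 124 and 133 CPM in male LLC1 mice, against 153, 167 and 199.6 CPM in male vehicle mice, with no overlap. In female LLC1 mice they were 109.8, 148 and 197 CPM, against 102, 133 and 155 CPM in female vehicle mice, with overlap. Timp3 fell in males (log2 fold change -0.48 ± 0.12, adjusted p = 0.00303) and had 0.17 ± 0.12, adjusted p = 0.387 in females, so the male effect minus the female effect was -0.65 ± 0.17 (unadjusted p = 0.000624, adjusted p = 0.232), which did not pass. Its exons overlap those of Syn3 on the other strand. Reads of Syn3 there, if even, would make 5.62% of the Timp3 counts, and Syn3 had -0.44 ± 0.08 in males and 0.10 ± 0.08 in females. Across the 50 genes, the male log2 fold change lay below the female one for 44. The median of the male minus the female value was -0.31 over the 50 genes and 0.015 over all genes tested. Since some mice stood high or low for many of the 50 genes at once, the 44 are not separate observations. No gene of the 50 passed the test of that difference with edgeR, and 0 of 17773 genes did. At an unadjusted p under 0.05 there were 2, Timp3 and Nid2, against 12.3% of all genes. DESeq2, limma-voom with and without sample weights, and the other settings also called 0 of the 50, while over all genes DESeq2 called 44, weighted voom 3 and voom 0. A difference between the sexes in how many genes passed is therefore not shown to be a difference in the response.

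Between male and female vehicle mice, 2 of the 50 genes differed (3.28% of all genes higher and 2.95% lower in males). Timp3 was higher in male vehicle mice (log2 fold change, male over female, 0.39 ± 0.12, adjusted p = 0.0466) and Plod2 lower (-0.53 ± 0.15, adjusted p = 0.03). Plod2 had 3.98 ± 0.842 CPM in male vehicle mice and 5.76 ± 0.973 CPM in female vehicle mice (SD, n = 6 each). The call of Timp3 ended without male LLC1 2-4 or 2-5, male vehicle 1-1, 1-2, 1-4, 2-4 or 2-5 or female vehicle 2-1, 2-2 or 2-3 (adjusted p = 0.0526 to 0.129), and that of Plod2 without male vehicle 1-1, 1-2, 1-4, 2-4 or 2-5 or female vehicle 1-1 or 1-3 (adjusted p = 0.0559 to 0.0835). With the title set as a block Timp3 was not called (adjusted p = 0.0504), while elastin, Eln, was called lower in male vehicle mice (-0.61, adjusted p = 0.0383). In this comparison all 5 Schwann cell markers were lower in male vehicle mice (median log2 fold change -0.95), with sums of 45.1 to 97.4 CPM in male vehicle mice, against 75.7 to 232 CPM in female vehicle mice. The pericyte marker Rgs5 was higher in male vehicle mice (0.27 ± 0.08, adjusted p = 0.0422), and no marker of the other 9 lists was called. The part of these markers in the 2 differences was not tested.

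Some mice stood high or low for many genes at once. Besides male vehicle 1-3, female vehicle 1-1 and 1-3 were the highest of their group for 25 and 22 genes and 2-3 was the lowest for 34. Male LLC1 mice had the narrowest range of summed levels of the 4 groups (2997 to 3454 CPM). Without male vehicle 1-3, the male calls numbered 25, with 23 lower and 2 higher (Lox and Thbs1). Sparc had 758 CPM in that mouse, and its nearest male vehicle neighbour 455 CPM. Sparc stayed called without it (-0.69, adjusted p = 0.0117).

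**Figure D3:**
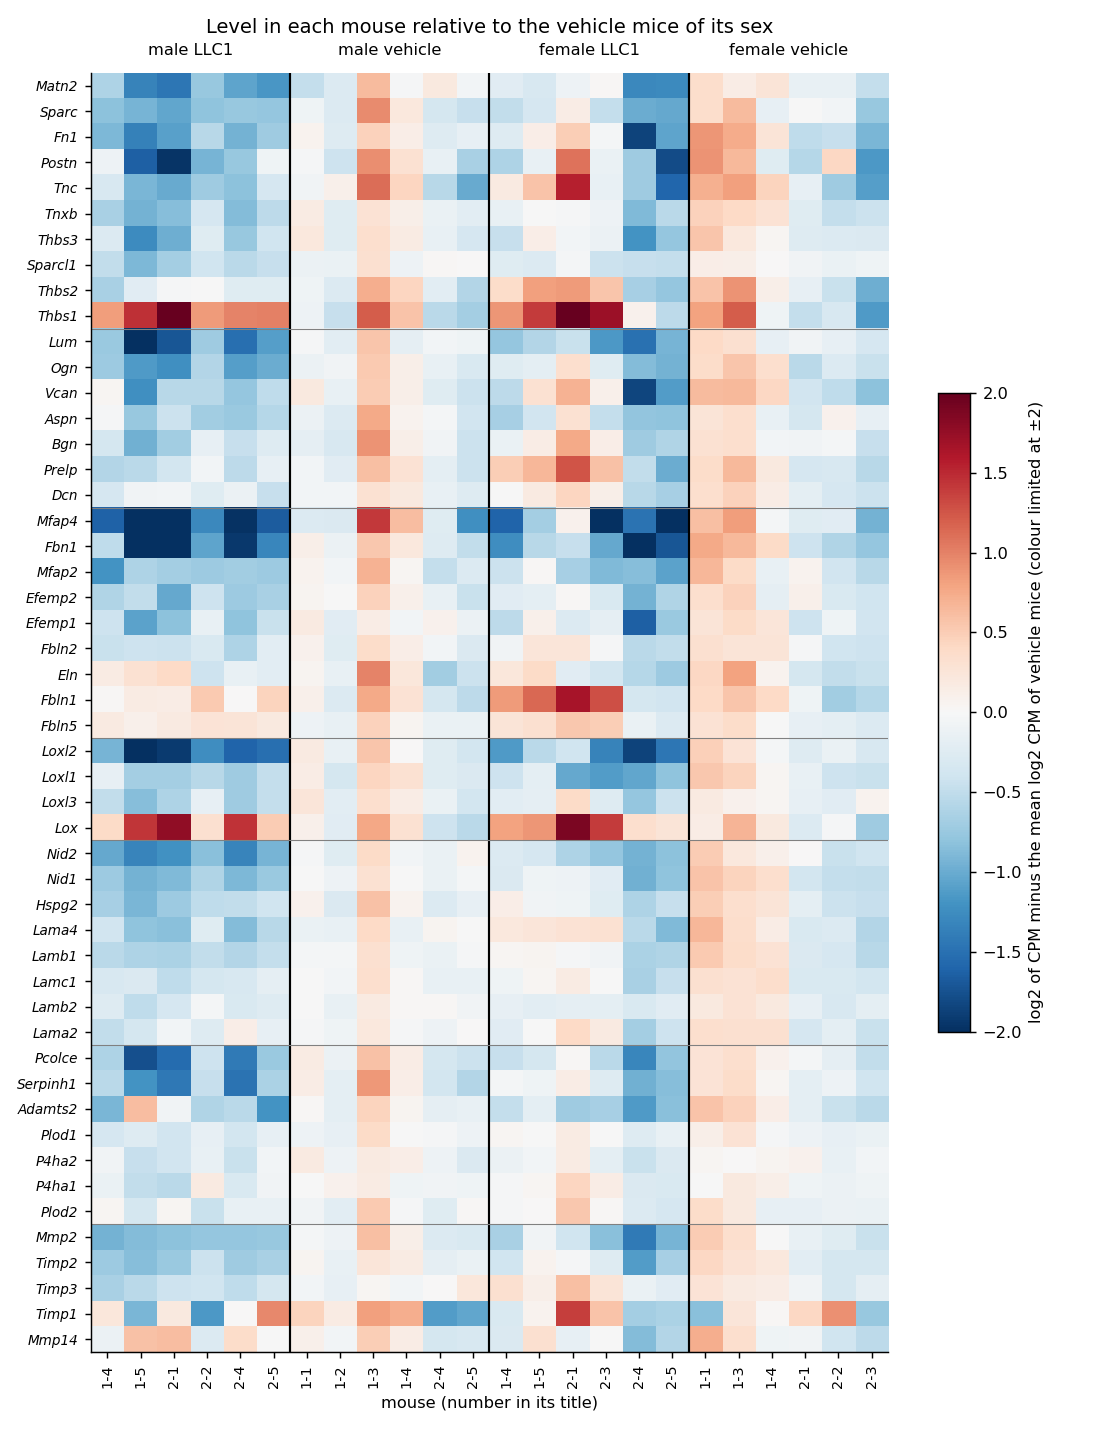
Colour shows log2 CPM minus the mean log2 CPM of the vehicle mice of the same sex, for 50 genes (rows, grouped by role) in 24 mice (columns, named by the number in their title). The 6 male LLC1 columns are mostly blue, male vehicle 1-3 is the reddest vehicle column, female LLC1 2-4 and 2-5 are bluer than the other 4 female LLC1 mice, and the Lox and Thbs1 rows stand out in red.

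Markers of the cells that make or border the matrix were read beside these genes, and their part in the results was not tested. Against the counts below, 19.5% of all genes tested were called higher and 16.8% lower in males. In females those shares were 4.97% and 4.95%. Of 10 fibro-adipogenic progenitor markers, 7 fell and 1 rose in males, and 3 fell and 1 rose in females, with a median log2 fold change of -0.55 in males and -0.38 in females. Their sum was 1495 to 1847 CPM in male LLC1 mice, against 1902 to 2533 CPM in male vehicle mice, with no overlap. In female LLC1 mice it was 1133 to 2092 CPM, against 1649.8 to 2897 CPM in female vehicle mice. Most of this sum was 1 gene, Gsn, so it says little of the other markers. Gsn had a mean of 1309 CPM in male LLC1 mice, against 1726 CPM in male vehicle mice. In females its mean was 1289 CPM with LLC1, against 1672 CPM with vehicle. Of 9 tendon cell markers, 5 fell in males and 0 in females, and their sum was 157 to 269 CPM in male LLC1 mice, against 168 to 788 CPM in male vehicle mice. It was 73.3 to 847 CPM in female LLC1 mice, against 116 to 604 CPM in female vehicle mice. Of the tendon markers, Fmod, Thbs4, Comp, Chad and Kera are matrix genes that are also counted among the other matrix genes below. The 8 endothelial markers were divided (2 higher and 3 lower in males, 3 higher and 0 lower in females), and 4 of 7 smooth muscle and pericyte markers fell in males and 0 in females. None of 8 macrophage markers was called in either sex, with sums of 126 to 166 CPM in male LLC1 mice, against 122 to 192 CPM in male vehicle mice. All 9 neutrophil markers rose in both sexes, their sum reaching 60.2 to 172 CPM in male LLC1 mice, against 1.34 to 3.71 CPM in male vehicle mice, and 60.7 to 165 CPM in female LLC1 mice, against 1.86 to 3.25 CPM in female vehicle mice. Of 3 satellite cell markers 2 fell in each sex. None of the Schwann cell, adipocyte or epithelial markers tested (5, 4 and 3) was called with LLC1. Of 6 genes of fast myofibres, the labelled tissue, Myh1 and Mylpf fell in males and Mylpf in females, with medians over the 6 of -0.28 and -0.14. Their sum was 102863 to 156528 CPM in male LLC1 mice, against 128263 to 168178 CPM in male vehicle mice. It was 104404 to 159630 CPM in female LLC1 mice, against 126362 to 159965 CPM in female vehicle mice, and the groups overlapped in both sexes.

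The 15 collagen genes read beside them, the partners that the enzymes above act on, were mostly lower. In males 13 of 15 fell, against 16.8% of all genes tested, and in females 8 of 15, against 4.95%. Their median log2 fold changes were -1.50 and -0.96. Their sum was 623 to 1207 CPM in male LLC1 mice, against 1889 to 4766 CPM in male vehicle mice. It was 669.5 to 1974 CPM in female LLC1 mice, against 1409 to 3909 CPM in female vehicle mice. The difference between the collagens and the 50 genes was not tested.

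**Figure D4:**
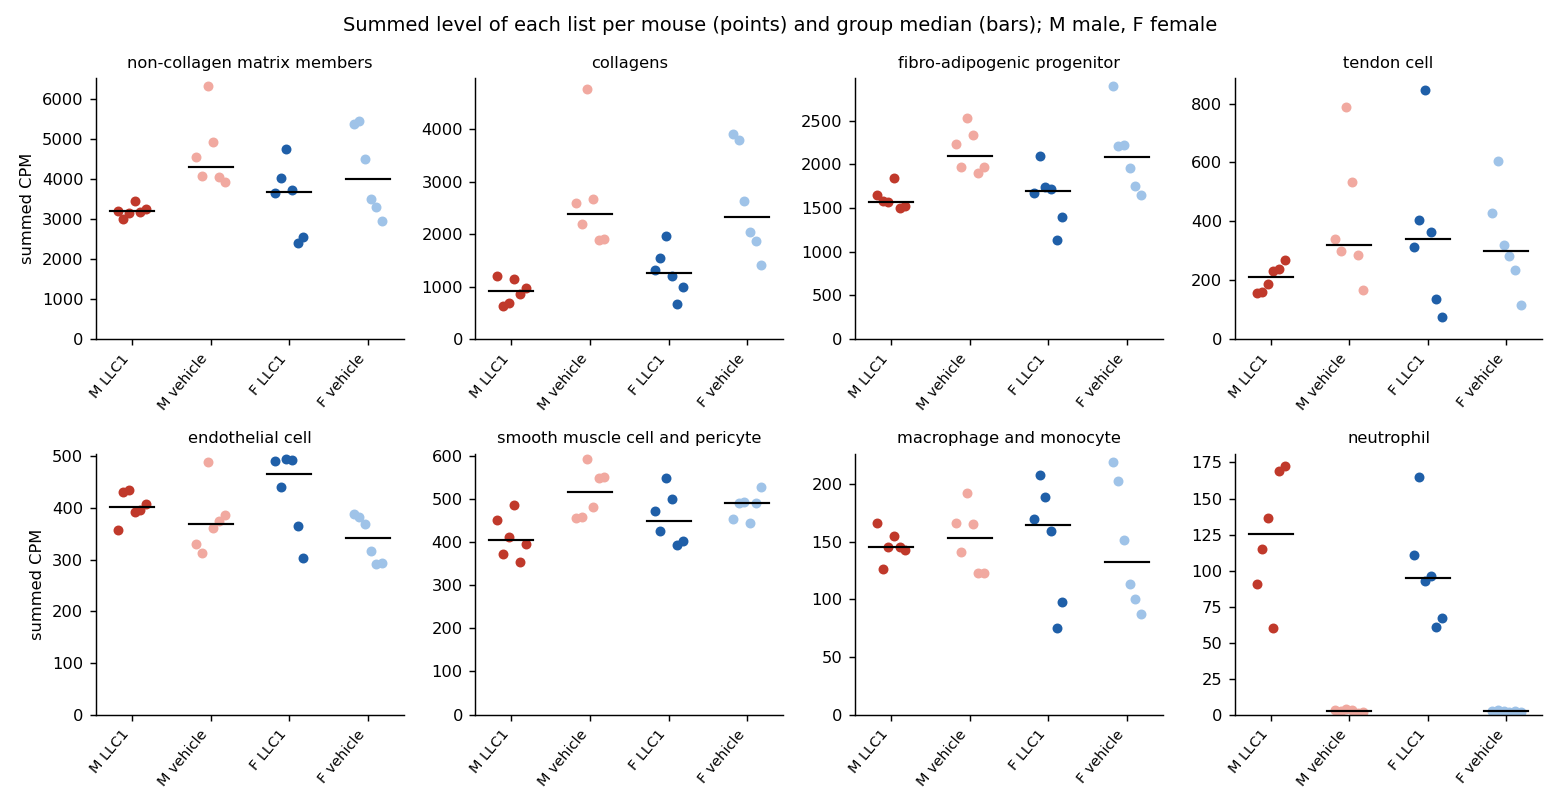
Summed CPM (vertical axis) of the 50 genes, of 15 collagens and of 6 lists of cell type markers in each mouse (points) with the group median (bars), by group: male LLC1, male vehicle, female LLC1 and female vehicle. Male LLC1 sums lie below male vehicle sums without overlap for the 50 genes, the collagens and the fibro-adipogenic progenitor markers. The progenitor sum is mostly Gsn. Macrophage sums overlap, and neutrophil sums are far higher with LLC1 in both sexes.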

How the data were processed

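The table the authors deposited gives raw read counts per gene for 24 libraries, which the titles number as separate mice. P-values therefore set group differences against the spread of these libraries within groups, which may be technical in part. Differences between lanes are not in that spread, since each group has its own lane. Per the labels' protocols, libraries came from poly(A) RNA (TruSeq RNA kit version 2, 12 PCR cycles) with no record of strand. The submitters' processing notes name CASAVA, STAR, featureCounts and mm10, while versions, options and the handling of reads over more than 1 gene were not found in these sources. Coordinates are those of the deposited table (mm10), and 32 of the 50 genes have the same ones in GENCODE M21.

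Differences were tested in edgeR 4.0.16 (R 4.3.3) by quasi-likelihood F-tests with filterByExpr, TMM factors (0.924 to 1.10), robust dispersions and 4 group means, leaving 20 residual degrees of freedom. P-values were adjusted by Benjamini-Hochberg over all 17773 genes tested and called under 0.05. The ± after a log2 fold change is its standard error (SE). Alternatives were DESeq2 1.42.0, limma 3.58.1 (voom, with and without sample weights), RLE factors, non-robust dispersions, no filter, only the 2 groups compared, title numbers as a block, and each library left out. Fits within a title set were added after seeing the data. A gene was marked as sharing reads where a neighbour's reads over common exon bases, if even, made at least 10% of its counts. The 50 genes and all lists were chosen with earlier results of these data known. Levels per group are given, by rule, for the 4 genes with the smallest adjusted p in each direction and sex, and for some others (Dcn, Fbn1, Lama2, Pcolce, Plod2, Mmp2, Timp1, Timp3) chosen after their values were seen. Of other matrix genes, the 3 called with the smallest adjusted p in each direction and sex are named.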

Additional observations from a re-analysis of the deposited data

Results flagged for a closer look

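For each of the 50 genes in each group of 6 mice, the extreme mouse was compared with its nearest neighbour, and 20 of 200 sets were flagged because that gap, as a share of the group's range, passed Dixon's critical value. Chance flags about 1 in 20. In 16 of them the male vehicle mouse 1-3 was far above the other 5. Among the adhesive and proteoglycan genes its level was 758 CPM for Sparc, 202 CPM for Sparcl1, 54.9 CPM for Lum, 139 CPM for Bgn and 44.7 CPM for Aspn. Among the elastic fibre genes it was 25.5 CPM for Fbln5 and 5.68 CPM for Mfap2. For the basement membrane it had 133 CPM of Lama2, 57.2 CPM of Lama4, 68 CPM of Lamb1, 241 CPM of Lamc1, 219 CPM of Nid1 and 631 CPM of Hspg2. For collagen maturation it had 50.5 CPM of Plod1, 5.62 CPM of Plod2 and 39 CPM of Adamts2. Without this mouse 25 of the 50 genes were called in males.

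The female LLC1 mouse 2-1 was far above the other 5 for Postn (81.6 CPM, next 34.7 CPM), Aspn (28.6 CPM, next 17.8 CPM) and Plod2 (8.25 CPM, next 5.77 CPM). The male LLC1 mouse 1-4 was far below its group for Mfap2 (1.54 CPM, next 2.12 CPM).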

How the results depend on the processing

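No called gene reversed its direction under any of 35 alternatives. Of 1120 values of the 32 male calls under them, 1030 stayed called and 90 did not. For the 9 female calls it was 238 of 315, and for the 33 averaged calls 1016 of 1122. Leaving out 1 library at a time kept 22 of 32 male and 4 of 9 female calls throughout (Lum, Loxl1, Loxl2 and Nid2 in females), with 24 to 34 genes called in males, 4 to 10 in females, 30 to 35 averaged, and 0 to 2 between vehicle mice of the 2 sexes. In females the count of 9 became 5 with no filter on low counts, 1 with the full title number as a replicate block, 0 within title set 1 and 1 within set 2. Males had 22 with that block, 27 with the title set as a replicate block and 8 within set 2. Averaged over the sexes the count of 33 became 18 with the full title number block and 13 within set 2. Both sex differences among vehicle mice (Timp3 and Plod2) ended with the full title number block and within set 1 (adjusted p = 0.154 to 0.782). Within set 1 another gene, Lamb2, was called lower in male vehicle mice (-0.43, adjusted p = 0.015). Within set 2 Plod2 ended (adjusted p = 0.249), while Lamb1 (0.55, adjusted p = 0.0424) and Nid1 (0.66, adjusted p = 0.039) were called higher in male vehicle mice. Fold changes moved as well as p-values: with the full title number block Lum in females was -0.59 in place of -0.88. The cause of these shifts was not tested. Of 14 same-numbered pairs, 1 (male and female vehicle 1-3) correlated best with its own number (r from -0.17 to 0.30 over the pairs), so the full number was not taken as a pairing. With only the 2 groups compared, Tnc, Vcan and Lamc1 were called lower in males (adjusted p = 0.0462, 0.0341 and 0.017). Fbln5 was called higher in females with limma-voom with sample weights (adjusted p = 0.0487). The interaction stayed at 0 of the 50 in every fit.

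Depth does not limit the abundant genes, but Timp1, at 12 counts in its thinnest library, is imprecise. Read sharing without strand leaves Nid2, Loxl3, Efemp2 and Thbs3 uncertain.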

Other observations

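Of 93 other matrix genes tested (95 listed), which include the 15 collagens above, 14 rose and 45 fell in males, and 5 rose and 14 fell in females. The shares higher, 15.1% in males and 5.38% in females, stood against 19.5% and 4.97% of all genes tested, and the shares lower, 48.4% in males and 15.1% in females, against 16.8% and 4.95%. Among the collagens 86.7% were lower in males and 53.3% in females. In females the shares lower were smaller in the remaining lists: 13% of other proteases and inhibitors, 6.9% of other glycoproteins and proteoglycans, 0% of other collagen-modifying enzymes and 6.25% of matrix receptors. In males those shares were 39.1%, 48.3%, 40% and 31.2%. Bmp1, the procollagen C-proteinase that Pcolce assists, fell in males (log2 fold change -1.05 ± 0.14, adjusted p = 9.54e-06) and in females (-0.73 ± 0.13, adjusted p = 0.00104), while its relative Tll1, which shares that activity, rose in males (1.04 ± 0.25, adjusted p = 0.00236) and females (1.21 ± 0.24, adjusted p = 0.0024). Col5a3 fell in males (-1.31 ± 0.19, adjusted p = 5.2e-05) and females (-1.63 ± 0.19, adjusted p = 6.58e-06), as did Col5a1 (-1.84 ± 0.28, adjusted p = 7.06e-05 in males and -1.32 ± 0.27, adjusted p = 0.00364 in females), both chains of collagen V, which starts collagen fibrils. The matricellular Smoc2 fell in males (-0.81 ± 0.12, adjusted p = 3.33e-05) and in females (-0.42 ± 0.12, adjusted p = 0.0232).

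Some proteases were higher. Mmp8, a collagenase of neutrophils and a member of the neutrophil list as well, rose in males (6.70 ± 0.55, adjusted p = 1.42e-08) and in females (6.59 ± 0.54, adjusted p = 1.95e-08). Mmp11, a stromelysin of stromal cells, rose in males (1.24 ± 0.24, adjusted p = 0.000459), with 0.39 ± 0.24, adjusted p = 0.308 in females. Adamts4, an aggrecanase that also cuts versican, rose in males (2.38 ± 0.48, adjusted p = 0.000775), with 0.71 ± 0.45, adjusted p = 0.339 in females. The lysyl hydroxylase Plod3 rose in females (0.31 ± 0.09, adjusted p = 0.0226), with 0.12 ± 0.09, adjusted p = 0.28 in males. Over the whole list of other proteases and inhibitors, 7 of 23 rose and 9 fell in males, and 4 rose and 3 fell in females. Differences between the sexes in these genes did not pass (0 of 93 in the test of that difference with edgeR).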
